A study of Mus musculus with 36 samples.

Results

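The comparison described here covers hours 48 to 60 of a differentiation of mouse embryonic stem cells towards spinal motor neurons. It sets the 3 libraries of day 2.5 against the 3 libraries of day 2, chosen by their labels alone, and these are 6 of the 36 mouse libraries of the time course. All samples came from 1 line, HM1, an established mouse embryonic stem cell line, and polyadenylated RNA was measured by sequencing. Cells freed of feeders were plated at day -3 in N2B27, a serum-free medium, with the growth factor bFGF at 10 ng/ml. From day -1 the medium also held CHIR99021 (5 µM), an activator of Wnt signalling, SB431542 (10 µM), a blocker of Activin and Nodal receptors, and DMH1 (2 µM), a blocker of BMP receptors. From day 0 all cells received retinoic acid (100 nM) and SAG (500 nM), a small molecule that activates Smoothened and so the Hedgehog pathway. Day 2 and day 2.5 cells had therefore had the same treatments and differed in 12 hours of further exposure. No culture kept without retinoic acid and SAG for the same time was analysed here. The medium was renewed daily, at an hour that the labels do not give, so the time spent in culture and the time since the last renewal cannot be told apart in this comparison.

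Retinoic acid and Sonic hedgehog are the signals that make motor neuron progenitors in the ventral spinal cord. Those progenitors divide, carry the transcription factor Olig2 and use Notch signalling, in which Hes factors are switched on by ligands of neighbouring cells, to hold back differentiation. A cell that leaves this state passes through a short proneural phase with Neurog2, stops dividing, and turns on Isl1, Lhx3 and Mnx1 together with the genes of axons, synapses and acetylcholine transmission.

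Gene counts of the 6 libraries summed to between 26567321 and 34806804 at day 2 and between 31729754 and 34023694 at day 2.5, within the range of the whole series. Any 2 replicates of a day differed by more than counting noise, and none were identical. The labels call the replicates biological but do not say whether they were separate cultures, and the spread that enters the p-values, estimated from the replicates of all 12 time points, may be technical. Mitochondrial genes held 1.12% to 1.38% of the counts at day 2 and 1.70% to 1.92% at day 2.5, where 1.92% was the highest share of all 36 libraries. The part of this shift in the results below was not tested. Of the 13 mitochondrially encoded protein genes, a set added after the data were seen, 7 rose, all 13 had a log2 fold change above 0 and the median was 0.62. Because these are bulk samples, fewer cells of a type and less RNA per cell cannot be told apart in any value below.

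Over these 12 hours 8594 of 17990 tested genes (47.8%) passed edgeR's quasi-likelihood test, with p-values adjusted by Benjamini-Hochberg and a threshold of 0.05. Of these 4483 were higher at day 2.5 (24.9% of tested genes) and 4111 lower (22.9%). A change of at least 2-fold was seen for 685 higher genes (3.81%) and 510 lower genes (2.83%), 1195 in all (6.64%), a number that fell to 338 when log2(TPM + 1) values were tested with limma. The 2 groups of libraries did not overlap for 9559 genes (53.1%). The median log2 fold change over all tested genes was 0.0019. The counts within gene lists below are read against these shares and this median. The lists were chosen with earlier results of these data known, so this is a description and not a test. Levels are in TPM (transcript abundance scaled to a fixed total and corrected for gene length) in each of the 3 replicates in their labelled order, and log2 fold changes are day 2.5 minus day 2 on TMM-scaled counts with an approximate standard error. TPM takes account of the lengths of a gene's isoforms and counts do not, so the 2 scales can give different ratios, as for Myt1l, whose mean was 0.73 and 1.94 TPM beside a log2 fold change of 2.84 ± 0.19.

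The largest rises included neuronal and retinoid genes, and the largest falls included amino acid transporters. By size of change among abundant genes, the 8 leading rises included Scg2, Cyp26b1, Sncg, Scml4, Crp and Grm2, and the 8 had log2 fold changes from 3.81 to 2.67. Scg2 encodes secretogranin II, a protein of secretory granules, Sncg gamma-synuclein of nerve terminals, and Grm2 a metabotropic glutamate receptor. Scml4 is a Polycomb-related gene and Crp the gene of C-reactive protein, better known from the liver. The 8 leading falls were Slc7a3, Chac1, Trib3, Mef2b, Slc6a9, Slc1a4, Stc2 and Atf3, with log2 fold changes from -4.62 to -2.44. Slc7a3 transports cationic amino acids, Slc6a9 glycine and Slc1a4 small neutral amino acids, and Slc1a4 stood at 72.2, 62.7 and 77.8 TPM at day 2 and 15.6, 11.9 and 10.6 TPM at day 2.5. Mef2b shares exon sequence with Borcs8 on the same strand, so its fall (19.9, 13.8 and 18.4 TPM at day 2 and 0, 2.33 and 2.88 TPM at day 2.5) is uncertain.

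**Figure D1:**
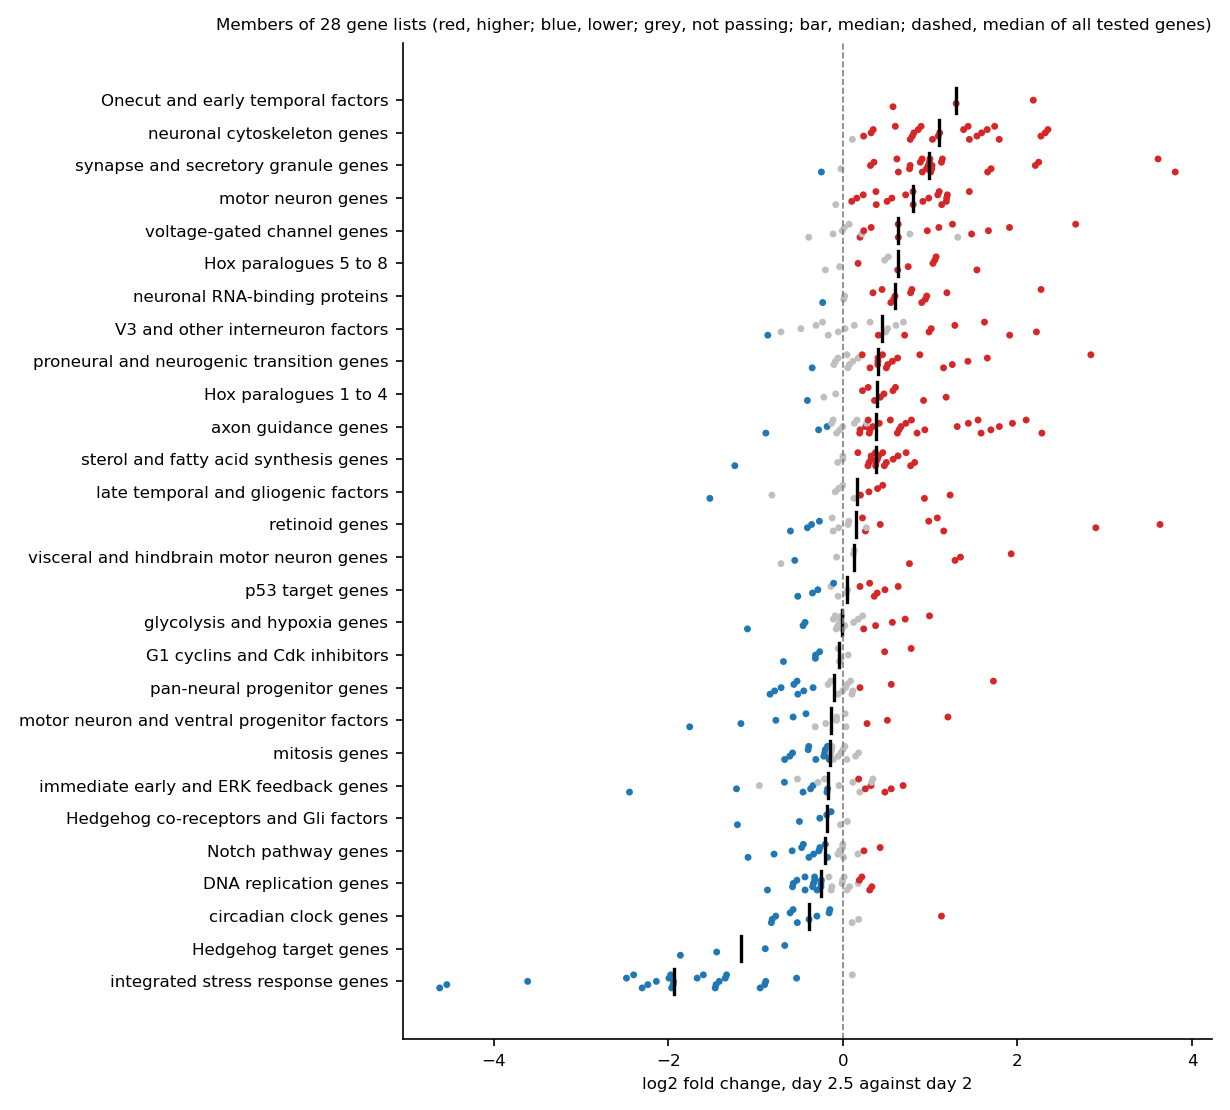
Log2 fold change of day 2.5 against day 2 (horizontal axis) for every tested member of 28 gene lists (rows, ordered by median); each point is a gene, red if higher, blue if lower and grey if it did not pass, the short bar is the list's median and the dashed line the median of all tested genes. Onecut, cytoskeleton, synapse and motor neuron genes lie to the right (medians 1.30, 1.10, 0.99 and 0.81) and Hedgehog target and integrated stress response genes to the left (medians -1.17 and -1.94).

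Transcription factors of ventral progenitors split by gene. Of 14 such genes, 3 rose, 5 fell and 6 did not pass, with a median log2 fold change of -0.13. Olig2 (chr16:91225457-91228677, plus strand, GRCm38), the factor that defines motor neuron progenitors, stood at 163, 188 and 190.3 TPM at day 2 and 137, 132 and 106 TPM at day 2.5, and the groups did not overlap (log2 fold change -0.57 ± 0.10, adjusted p = 1.29e-05). Nkx6-2 and Nkx2-9, homeobox genes of the ventral progenitor domains, fell further, from 13.4 ± 1.56 to 3.80 ± 0.0252 TPM and from 119 ± 15.6 to 54.5 ± 6.96 TPM (mean ± SD, n = 3). Foxa2, a floor plate factor, was also lower at day 2.5 (log2 fold change -0.77 ± 0.095), but this fall lay between rises. It had risen from the previous time point to day 2 (log2 fold change 0.69) and rose again from day 2.5 to day 3 (log2 fold change 0.66). Its means were 66.5, 39.6 and 65.2 TPM at days 2, 2.5 and 3. Nkx2-2, the factor of the domain just below motor neuron progenitors, stood at 49.5, 47.9 and 45.6 TPM at day 2 and 48.9, 50.1 and 50.2 TPM at day 2.5, and these overlapped (log2 fold change 0.037 ± 0.061, adjusted p = 0.654). Nkx6-1 did not pass either (log2 fold change -0.071 ± 0.054, adjusted p = 0.298), although leaving out day 2 replicate 1 or day 2.5 replicate 3 made it pass as lower (adjusted p = 0.0396 and 0.0269). Spon1, a gene of the floor plate, was among those that rose (log2 fold change 0.51 ± 0.057). So was Shh, at 29.4, 25.2 and 33.5 TPM at day 2 and 35.4, 32.4 and 41.9 TPM at day 2.5 in overlapping groups (adjusted p = 0.0144), and its call did not survive the removal of day 2 replicate 2 (adjusted p = 0.153) or of day 2.5 replicate 3 (adjusted p = 0.162).

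Genes shared by all neural progenitors were also mixed: of 20, 3 rose, 8 fell and 9 did not pass, with a median of -0.096. Sox2 and Sox1, factors that keep progenitors undifferentiated, fell with log2 fold changes of -0.52 ± 0.050 and -0.78 ± 0.054. Sox2 stood at 176, 181 and 190.4 TPM at day 2 and 130.1, 127 and 134 TPM at day 2.5, without overlap. Pax6, which marks more dorsal progenitors, went from 19.6 ± 1.34 to 11.3 ± 1.74 TPM. Irx3, another gene of intermediate progenitor domains, stood at 30.7 and 31.3 TPM and did not pass (adjusted p = 0.989). The 3 that rose were Fabp7, Irx5 and Nes. Fabp7, a fatty acid binding protein of radial glia, stood at 51.4, 56.1 and 53.6 TPM at day 2 and 179, 195 and 173 TPM at day 2.5 (log2 fold change 1.73 ± 0.063, adjusted p = 1.06e-20), the widest change among the 20. It had also risen over the 12 hours before and rose again over the 12 hours after (log2 fold changes 1.31 and 1.81).

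Notch pathway genes were mostly lower at day 2.5. Of 19 tested, 2 rose, 11 fell and 6 did not pass, with a median of -0.20, against 22.9% lower among all genes. Hes5 and Hes1 are the target genes through which Notch represses proneural factors. Hes5 stood at 190.5, 225 and 178 TPM at day 2 and 109.6, 98.7 and 83.6 TPM at day 2.5, about 2-fold apart and without overlap (log2 fold change -1.08 ± 0.089, adjusted p = 4.57e-12), while Hes1 went from 96.6 ± 5.90 to 57.5 ± 0.966 TPM. Among the receptors Notch1, Notch2 and Notch3 all fell, Notch2 with a log2 fold change of -0.47 ± 0.080. Among the ligands Dll1, Dll4 and Jag1 fell, and Dll3 (log2 fold change 0.0096 ± 0.094, adjusted p = 0.953) and Jag2 (log2 fold change -0.055 ± 0.063, adjusted p = 0.504) did not pass. Dll1, the ligand on newly committed neurons, stood at 71.1, 72.4 and 66.1 TPM at day 2 and 60.6, 59.1 and 61.7 TPM at day 2.5, a small shift without overlap (log2 fold change -0.26 ± 0.046). Hey1, another Hes-related repressor, was 1 of the 2 that rose (log2 fold change 0.43 ± 0.066), and the other was Rfng, which glycosylates Notch. The falls of Hes1, Jag1 and Notch2 lay between 2 rises. Their log2 fold changes were 0.46, 0.89 and 0.24 over the 12 hours before and 0.35, 0.62 and 0.34 over the 12 hours after. For Hes5 these were -0.079 and -0.30. The list's median was 0.24 in the step before and 0.16 in the step after.

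The proneural and neurogenic transition genes, which carry cells from division into differentiation, were mainly higher: 16 of 25 rose, 1 fell and 8 did not pass, with a median of 0.40. Neurog2, the main proneural factor of motor neuron progenitors, stood at 80.0, 87.8 and 97.9 TPM at day 2 and 112, 105 and 91.2 TPM at day 2.5 and did not pass (log2 fold change 0.18 ± 0.088, adjusted p = 0.0995). It passed as higher without a filter on low counts (adjusted p = 0.00268) and without day 2 replicate 3 or day 2.5 replicate 3 (adjusted p = 0.0286 and 0.0234). Neurog1 and Neurod1 did not pass (log2 fold changes 0.12 and -0.10). Neurod4, a factor of the step after Neurog2, stood at 42.9, 44.5 and 41.3 TPM at day 2 and 58.1, 57.3 and 71.1 TPM at day 2.5 and rose without overlap (log2 fold change 0.50 ± 0.089, adjusted p = 1.83e-05). Nhlh1 and Nhlh2 are close relatives that mark newborn neurons, and they went opposite ways. Nhlh1 stood at 67.0, 66.7 and 69.2 TPM at day 2 and 55.1, 50.7 and 57.3 TPM at day 2.5 (log2 fold change -0.35 ± 0.090) and Nhlh2 at 28.6, 27.8 and 25.8 TPM at day 2 and 75.6, 72.6 and 82.1 TPM at day 2.5 (log2 fold change 1.43 ± 0.066), with the fall of Nhlh1 not passing on log2(TPM + 0.1) values (adjusted p = 0.143). Among factors that act in new neurons, these rose: Myt1 from 15.1 ± 1.39 to 36.1 ± 2.59 TPM, Ebf1 from 9.53 ± 1.46 to 19.95 ± 4.47 TPM and Ebf3 from 19.2 ± 1.18 to 35.6 ± 5.11 TPM. The largest fold change of the list was that of Myt1l, a repressor of non-neuronal genes.

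Motor neuron genes rose nearly without exception: 19 of 20 passed as higher, against 24.9% of all genes, and the median log2 fold change was 0.81. The remaining member, Lmo4, a LIM-only cofactor, stood at 58.8 and 58.2 TPM and did not pass (adjusted p = 0.117) but passed as lower without day 2 replicate 1 or day 2.5 replicate 2 (adjusted p = 0.0374 and 0.0412). Isl1 (chr13:116298281-116309689, minus strand), the LIM homeobox factor that sets motor neuron identity, stood at 48.1, 41.1 and 42.7 TPM at day 2 and 72.4, 74.0 and 82.3 TPM at day 2.5 (log2 fold change 0.81 ± 0.087, adjusted p = 2.23e-09). Its groups lay far apart, and day 2.5 held its highest mean of the whole course. Isl2 went from 7.98 ± 0.984 to 15.6 ± 0.540 TPM and Lhx4 from 15.0 ± 1.51 to 27.1 ± 2.08 TPM. Lhx3, which works in a complex with Isl1, stood at 14.8, 13.8 and 16.7 TPM at day 2 and 21.8, 21.4 and 17.7 TPM at day 2.5, with the closest libraries under 1 TPM apart (log2 fold change 0.38 ± 0.090). Mnx1, also known as Hb9, stood at 22.01, 21.4 and 21.2 TPM at day 2 and 25.99, 26.3 and 24.8 TPM at day 2.5, a narrow but separate shift (log2 fold change 0.23 ± 0.072, adjusted p = 0.00762). Most of the Mnx1 rise had come in the 12 hours before, when its log2 fold change was 1.82, and the 2 steps differed (adjusted p = 9.95e-12).

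The genes for acetylcholine transmission rose in the same interval. Slc18a3, the vesicular acetylcholine transporter, stood at 29.7, 29.5 and 28.3 TPM at day 2 and 68.7, 65.9 and 71.0 TPM at day 2.5 (log2 fold change 1.20 ± 0.065, adjusted p = 1.53e-16), so every day 2.5 library held over 2 times the level of any at day 2. Chat, which makes acetylcholine and shares its locus with Slc18a3, was lower and moved less: 4.98, 3.77 and 4.44 TPM at day 2 and 6.81, 6.03 and 7.05 TPM at day 2.5 (log2 fold change 0.56 ± 0.11). Slc10a4, a transporter of cholinergic vesicles, went from 22.9 ± 3.47 to 51.7 ± 2.83 TPM, Ache, which breaks acetylcholine down, from 1.11 ± 0.155 to 2.72 ± 0.255 TPM, and Slc5a7, the choline transporter, from 0.207 ± 0.00577 to 0.583 ± 0.146 TPM. The surface receptors were unequal. Ngfr and Gfra1, receptors for neurotrophin and GDNF signals, had log2 fold changes of 1.19 ± 0.071 and 1.09 ± 0.076, and Ret, the partner of Gfra1, 0.72 ± 0.079. The chemokine receptor Cxcr4 and the column factor Foxp1 moved least among those that passed (log2 fold changes 0.16 ± 0.064 and 0.10 ± 0.041), and both calls were lost with median-of-ratios scaling (adjusted p = 0.0656 and 0.0869). Aldh1a2, the retinoic acid synthesis enzyme of limb motor neurons, was still at 2.57 ± 0.363 TPM (mean ± SD, n = 3) and reached 22.8 TPM at day 3.

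**Figure D2:**
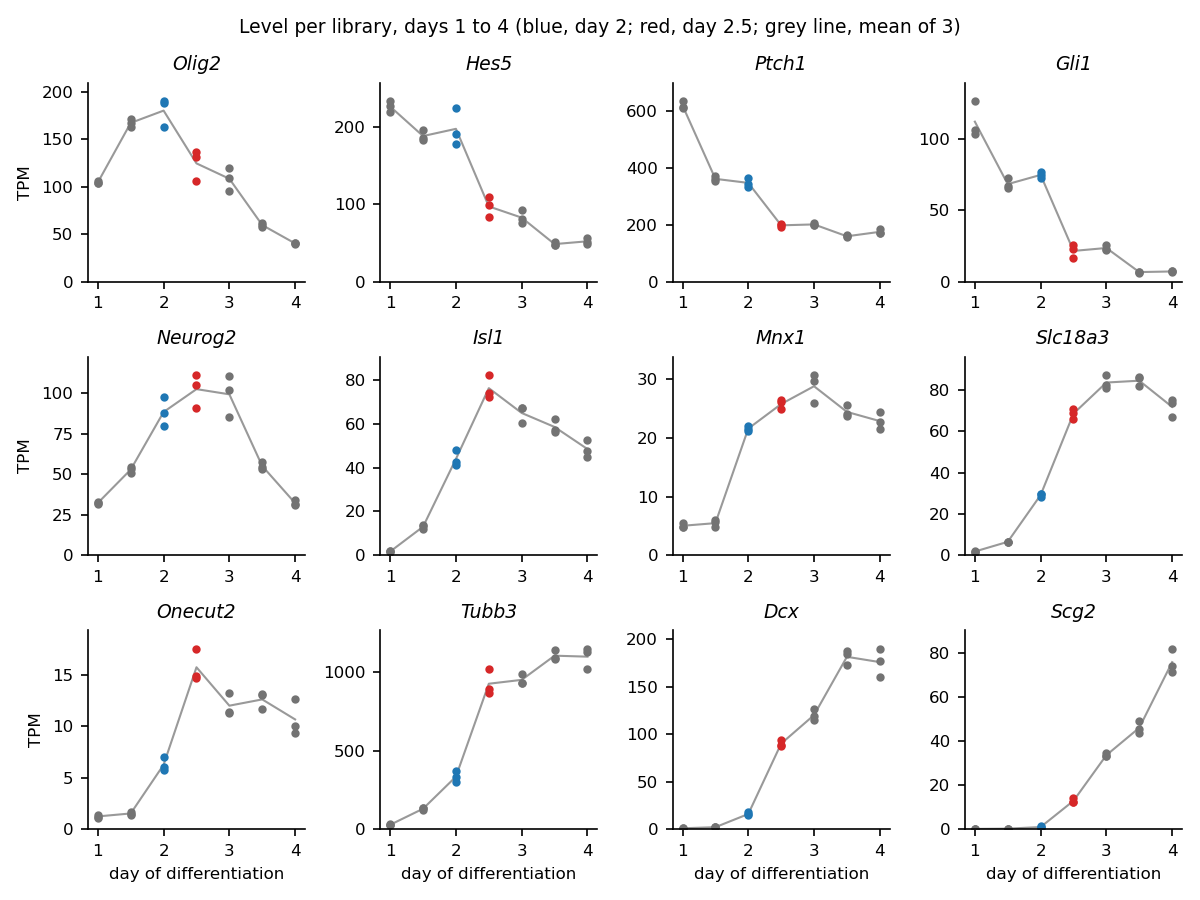
TPM (vertical axes) of 12 genes in each library from day 1 to day 4 (horizontal axes, day of differentiation); points are libraries, blue for day 2 and red for day 2.5, and the grey line joins the means of 3. Olig2 drops from a mean of 180.2 to 125 TPM and Hes5 from 198 to 97.3 TPM while Isl1 reaches its top at day 2.5 (76.2 TPM) and Tubb3 rises from 335 to 928 TPM.

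Of 9 genes of visceral and hindbrain motor neurons, 4 rose, 1 fell and 4 did not pass (median 0.13), and only 2 rose in the 2 fits to log2 TPM. Phox2a, a homeobox factor of these neurons, stood at 19.97, 15.4 and 15.7 TPM at day 2 and 36.3, 35.4 and 60.2 TPM at day 2.5 and rose (log2 fold change 1.35 ± 0.14, adjusted p = 1.60e-09). In this gene day 2.5 replicate 3 was the highest of the 6 libraries, and the same library led for Tbx20, a T-box factor of the same list (2.69, 1.66 and 2.08 TPM at day 2 and 2.91, 2.46 and 5.35 TPM at day 2.5). Tbx20 lost its call in the fits to log2(TPM + 1) and log2(TPM + 0.1) (adjusted p = 0.0707 and 0.183).

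Of 22 tested interneuron factors, 8 rose, 1 fell and 13 did not pass, with a median of 0.45. Its members summed to between 56.0 and 63.5 TPM in the day 2 libraries and between 98.0 and 101 TPM at day 2.5, without overlap, and most of this was Prdm8 and Sox21. Lhx1, found in several interneuron classes and in lateral motor neurons, stood at 0.66, 0.77 and 0.81 TPM at day 2 and 3.51, 3.72 and 3.62 TPM at day 2.5 (log2 fold change 2.22 ± 0.14). Lbx1 and Tlx3, dorsal interneuron factors, rose to 1.31 and 0.923 TPM. Dmrt3, of 1 dorsal class, rose to 0.62 TPM, a call lost without day 2.5 replicate 3 (adjusted p = 0.0634). Sim1, which defines the V3 interneurons that arise from Nkx2-2 progenitors, was at 0.1 and 0.153 TPM and did not pass (adjusted p = 0.405). Over the next 12 hours Sim1 went up to 1.44 TPM (log2 fold change 2.99, adjusted p = 4.19e-10).

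All 3 Onecut genes, factors of early-born neurons, rose with a median of 1.30. Onecut2 stood at 7.01, 6.04 and 5.7 TPM at day 2 and 14.9, 14.7 and 17.6 TPM at day 2.5, with every day 2.5 library over 2 times as high as any at day 2 (log2 fold change 1.30 ± 0.10, adjusted p = 1.37e-12). Onecut3 went from 0.903 ± 0.0503 to 4.19 ± 0.537 TPM and Onecut1 from 16.2 ± 0.776 to 24.5 ± 0.787 TPM. Of 12 factors tied to later-born neurons and to glia, 6 rose, 1 fell and 5 did not pass (median 0.17). Pou2f2 and Zfhx3 rose (log2 fold changes 1.23 ± 0.080 and 0.46 ± 0.094). Nfib, a factor of the gliogenic switch, rose as well but was only at 1.03 TPM. Slc1a3, the glutamate transporter of radial glia and astrocytes, fell from 11.2 ± 1.13 to 4.16 ± 0.0551 TPM. It alternated, with means of 7.23 TPM at day 1.5 and 8.22, 5.51 and 10.8 TPM at days 3, 3.5 and 4.

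The genes that build a neuron rose widely. Of 24 neuronal cytoskeleton genes 23 rose and none fell, with a median of 1.10, and the remaining Dpysl5 had a log2 fold change of 0.11 ± 0.056 (adjusted p = 0.109). Tubb3, the neuronal beta-tubulin, stood at 334, 369 and 301 TPM at day 2 and 892, 867 and 1025 TPM at day 2.5 (log2 fold change 1.44 ± 0.066, adjusted p = 2.13e-18), and the lowest day 2.5 library was over 2 times the highest of day 2. Tuba1a, an alpha-tubulin that progenitors also make, began far higher, at 1766 TPM, and went to 3599 TPM. Dcx, a microtubule protein of migrating neurons, stood at 17.6, 15.5 and 14.6 TPM at day 2 and 87.6, 88.3 and 93.9 TPM at day 2.5 (log2 fold change 2.35 ± 0.10, adjusted p = 1.40e-19). The neurofilament gene Nefl went from 61.5 ± 5.67 to 314 ± 31.3 TPM and its neighbour Nefm, which overlaps it on the other strand, from 23.2 ± 3.76 to 79.2 ± 19.3 TPM. Stmn2, Gap43, Map2 and Mapt, which serve growing axons and dendrites, had log2 fold changes of 1.65, 1.79, 1.45 and 2.27.

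Among 15 neuronal RNA-binding proteins, which drive neuronal splicing and RNA stability, 12 rose and 1 fell (median 0.60). Rbfox1 had the largest change (log2 fold change 2.27 ± 0.12), Srrm3 and Nova2 rose to 15.5 and 39.5 TPM, and Elavl2 went from 75.1 ± 3.96 to 139 ± 5.31 TPM. The member that fell was Ptbp1, the splicing repressor of non-neuronal cells, at 446, 447 and 436 TPM at day 2 and 406, 411 and 389 TPM at day 2.5, a modest shift without overlap (log2 fold change -0.23 ± 0.042).

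Of 26 synapse and secretory granule genes 24 rose, with 1 lower and a median of 0.99. Scg2 stood at 1.24, 0.81 and 0.71 TPM at day 2 and 12.2, 12.3 and 14.0 TPM at day 2.5 (log2 fold change 3.81 ± 0.15, adjusted p = 3.28e-19) and Sncg at 8.37, 8.49 and 6.51 TPM at day 2 and 94.0, 97.4 and 101 TPM at day 2.5 (log2 fold change 3.61 ± 0.12, adjusted p = 3.61e-22), from near 0 and from under 10 TPM to levels without any overlap. Snap25 and Syt1, of the vesicle fusion machinery, went from 6.31 ± 1.05 to 28.5 ± 2.55 TPM and from 1.03 ± 0.157 to 4.89 ± 0.489 TPM. Gria2, a glutamate receptor subunit, and Syn1, of synaptic vesicles, had log2 fold changes of 1.66 ± 0.18 and 0.98 ± 0.10. Dlg4, the PSD-95 scaffold of the receiving side, was the one that fell (log2 fold change -0.25 ± 0.057), and Cplx2 stood at 24.4 and 24.7 TPM and did not pass (adjusted p = 0.787).

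Of 20 voltage-gated channel genes 12 were higher and none lower, with a median of 0.64. Sodium channel genes led, with Scn3a at 0.28, 0.77 and 0.4 TPM at day 2 and 2.16, 2.46 and 3.15 TPM at day 2.5 and Scn2a at 0.28, 0.2 and 0.36 TPM at day 2 and 1.28, 1.34 and 1.51 TPM at day 2.5. Of 36 axon guidance genes, 25 rose, 3 fell and 8 did not pass (median 0.38). Dcc, the netrin receptor, stood at 1.54, 1.38 and 1.32 TPM at day 2 and 6.44, 5.92 and 6.18 TPM at day 2.5 (log2 fold change 2.10 ± 0.11, adjusted p = 6.17e-17), and Unc5c, another netrin receptor, went from 0.327 ± 0.0306 to 1.6 ± 0.242 TPM. Slit2, a repellent that motor neurons and floor plate make, was the most abundant of those named, at 87.2, 70.6 and 67.8 TPM at day 2 and 217, 209.8 and 207 TPM at day 2.5. Robo1, a receptor for Slit proteins, rose (log2 fold change 0.67 ± 0.061), and Robo3 fell from a low level (log2 fold change -0.88 ± 0.33), a call lost without day 2 replicate 1 or 3 or day 2.5 replicate 1 or 2 (adjusted p 0.0736 to 0.14). Alcam, an adhesion molecule of motor axons, went from 3.66 ± 0.649 to 16.2 ± 3.54 TPM.

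Cell division genes were mixed, with more lower than higher. Of 27 DNA replication genes, 4 rose, 14 fell and 9 did not pass (median -0.25). Cdt1, which licenses replication origins, stood at 161, 181 and 182 TPM at day 2 and 103, 103 and 101 TPM at day 2.5 (log2 fold change -0.86 ± 0.062, adjusted p = 2.41e-13), without overlap. Lig1, Pola1 and Pole, of the replication fork, had log2 fold changes of -0.58, -0.57 and -0.53, while Pcna, the sliding clamp, stood at 302 and 307 TPM and did not pass (adjusted p = 0.987). The 4 that rose were Tyms, Fen1, Ccne1 and Ccne2, and only 2 did so without day 2 replicate 1. Of 23 mitosis genes, 12 fell, none rose and the median was -0.15, but only 7 fell and 2 rose without day 2 replicate 2 or in either fit to log2 TPM. Mki67, present in all dividing cells, stood at 94.2, 98.5 and 88.7 TPM at day 2 and 81.7, 82.0 and 68.8 TPM at day 2.5, without overlap (log2 fold change -0.31 ± 0.082, adjusted p = 0.00219). Cenpe and Ndc80, of the kinetochore, went from 47.8 ± 3.53 to 31.7 ± 1.32 TPM and from 54.8 ± 0.696 to 36.8 ± 0.608 TPM. By the median, both lists fell less in this interval than over the 12 hours before or after. The replication medians were -0.67 before and -0.38 after, and the mitosis medians -0.43 and -0.32. At day 3.5, against the mean of days 3 and 4, 22 of 27 replication genes were higher and none lower. Of the 23 mitosis genes 20 were higher and 1 lower. Among 10 G1 cyclins and Cdk inhibitors 2 rose and 4 fell. The inhibitors Cdkn1c, at 62.0, 62.2 and 59.7 TPM at day 2 and 98.8, 96.1 and 124 TPM at day 2.5, and Cdkn2d (log2 fold change 0.48 ± 0.069) rose, and the D cyclins Ccnd1, Ccnd2 and Ccnd3 fell, Ccnd2 from 400.2 ± 20.1 to 255 ± 31.3 TPM. Cdkn1a averaged 196 TPM on both days and did not pass (adjusted p = 0.495).

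Every one of the 4 Hedgehog target genes fell, with a median of -1.17, although SAG was present throughout. These genes are read as a measure of pathway output because Gli factors switch them on, and the products Ptch1 and Hhip hold back the signal. Together they summed to between 441 and 470 TPM in the day 2 libraries and between 228 and 246 TPM at day 2.5. Gli1 (chr10:127329882-127341974, minus strand) stood at 74.7, 72.3 and 76.9 TPM at day 2 and 25.5, 22.6 and 16.4 TPM at day 2.5 (log2 fold change -1.86 ± 0.087, adjusted p = 4.09e-18). Ptch1, the receptor, stood at 333, 366 and 344 TPM at day 2 and 203, 192 and 199 TPM at day 2.5 (log2 fold change -0.89 ± 0.043, adjusted p = 1.26e-17). In neither gene did the groups come near each other. Hhip, which binds the ligand, went from 17.0 ± 0.952 to 5.97 ± 1.14 TPM. Over the 12 hours before and after, Gli1 had log2 fold changes of 0.021 and 0.043, and the step of hours 48 to 60 differed from both (adjusted p = 1.12e-12 and 3.21e-11). Of the 7 co-receptors and Gli factors, 5 fell and 2 did not pass (median -0.18). Gli2, the main activator, went from 8.02 ± 1.07 to 3.56 ± 0.444 TPM, and Smo, the protein that SAG binds, from 109 ± 1.65 to 98.7 ± 1.41 TPM.

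Retinoid genes split into a few large rises and several small falls: of 18 tested, 8 rose, 4 fell and 6 did not pass, with a median of 0.15. Cyp26b1 (chr6:84571414-84593908, minus strand), an enzyme that degrades retinoic acid and is itself induced by it, stood at 4.94, 3.5 and 3.44 TPM at day 2 and 42.6, 53.3 and 54.2 TPM at day 2.5 (log2 fold change 3.63 ± 0.14, adjusted p = 4.33e-20). Cyp26a1, an enzyme of the same kind, stood at 3.65, 4.35 and 4.29 TPM at day 2 and 9.52, 9.43 and 7.85 TPM at day 2.5 (log2 fold change 1.08 ± 0.13). Dhrs3, which turns retinal back to retinol, went from 6.64 ± 0.866 to 14.9 ± 1.49 TPM. In all 3 the groups were far apart. Crabp2, which carries retinoic acid to its receptors, fell from 889 ± 43.4 to 711 ± 41.4 TPM, Rarg fell from 12.2 ± 0.626 to 7.97 ± 0.471 TPM, and the receptor gene Rarb, also a classical target, did not pass (41.4 and 39.3 TPM, adjusted p = 0.1).

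The promoters of Cyp26a1 and Rarb hold the letters of an element through which retinoic acid receptors are known to act, and the stretch around it is shown because Cyp26a1 rose in this interval and Rarb did not pass. The element, called DR5, is a direct repeat searched as GTTCA or GGTCA, any 6 bases, and GTTCA or GGTCA again, on both strands and from 250 bases before to 50 after each start site of RefSeq on GRCm38.p6. It was found for 2 of 14 retinoid genes in the table (14.3%) and 73 of 27025 genes overall (0.27%). Capitals mark the match, and sequences read 5′ to 3′ on the strand of the gene.
Cyp26a1 (chr19:37697751-37697807, plus strand): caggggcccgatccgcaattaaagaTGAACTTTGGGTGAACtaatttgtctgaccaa
Rarb (chr14:16575488-16575553, minus strand): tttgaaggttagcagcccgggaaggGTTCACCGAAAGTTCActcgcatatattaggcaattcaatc
The match starts at position -32 from the start site in Cyp26a1, where it lies on the opposite strand, and at -52 in Rarb. It describes the letters only, and binding was not measured.

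The retinoid degradation genes alternated between the 12-hour and the whole-day time points. Cyp26b1 averaged 12.8, 3.96, 50.01, 6.43, 51.3 and 6.73 TPM at days 1.5, 2, 2.5, 3, 3.5 and 4. Cyp26a1 averaged 9.90, 4.10, 8.93, 3.4, 10.6 and 4.26 TPM at the same times. Both were higher at days 1.5, 2.5 and 3.5 than at days 2, 3 and 4. A contrast that used no day 2 or day 2.5 library, day 3.5 minus the mean of days 3 and 4, gave log2 differences of 3.01 for Cyp26b1 (adjusted p = 3.94e-20) and 1.52 for Cyp26a1 (adjusted p = 7.43e-12). Dhrs3 differed as well in that contrast (0.98), with means of 8.07, 28.1 and 27.9 TPM at days 3, 3.5 and 4. The contrast passed for 7466 genes (41.5%), 3924 higher (21.8%) and 3542 lower (19.7%), and it also picks up any course that bends at day 3.5. Of the retinoid list 10 of 18 were higher and 4 lower in it. Isl1 was slightly higher in the same contrast (log2 difference 0.18, adjusted p = 0.049), and Gli1 and Hes5 were lower (-0.83 and -0.39). Isl1 fell steadily, with means of 64.9, 58.5 and 48.5 TPM at days 3, 3.5 and 4. At those times Gli1 averaged 23.5, 6.68 and 7.12 TPM and Hes5 82.8, 48.6 and 52.2 TPM. Gli1 and Hes5 thus dropped after day 3 and stayed low at day 4, unlike Cyp26a1 and Cyp26b1. Hes1 did alternate, in the other direction. Its means were 61.3, 96.6, 57.5, 72.8, 61.9 and 91.2 TPM at days 1.5, 2, 2.5, 3, 3.5 and 4. In the day 3.5 contrast 13 of 19 Notch pathway genes were lower and 1 higher, against 19.7% lower among all genes. All 4 Hedgehog target genes and 7 of 14 ventral progenitor factors were lower in it, and none of either list was higher.

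Hox genes assign position along the body axis, and many answer to retinoic acid. Most tested members of paralogue groups 1 to 8 rose. In groups 1 to 4, 9 of 12 rose and 1 fell (median 0.40), and in groups 5 to 8, 7 of 11 rose and none fell (median 0.63). Hoxb5 stood at 61.9, 60.5 and 52.5 TPM at day 2 and 145, 171 and 205 TPM at day 2.5 (log2 fold change 1.54 ± 0.090, adjusted p = 1.18e-15), without overlap. It was lower again at day 3 (109 TPM) and higher at day 3.5 (259 TPM). Hoxa5, Hoxb6 and Hoxc5 roughly doubled, with log2 fold changes of 1.05, 1.03 and 1.07. Hoxb8 went from 142 ± 7.81 to 228 ± 4.78 TPM and Hoxc4 from 62.1 ± 2.10 to 96.5 ± 7.66 TPM. Hoxb1, the earliest to be expressed in the hindbrain, was the one that fell (log2 fold change -0.41 ± 0.10). In groups 9 to 13, 7 of 14 genes passed the filter on low counts, and none changed in the main edgeR fit. In the edgeR fit without that filter 1 of them passed as lower. Hoxb9 held nearly all of their level, at 74.8, 80.0 and 117 TPM at day 2 and 102, 90.4 and 61.7 TPM at day 2.5, with wide overlap.

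**Figure D3:**
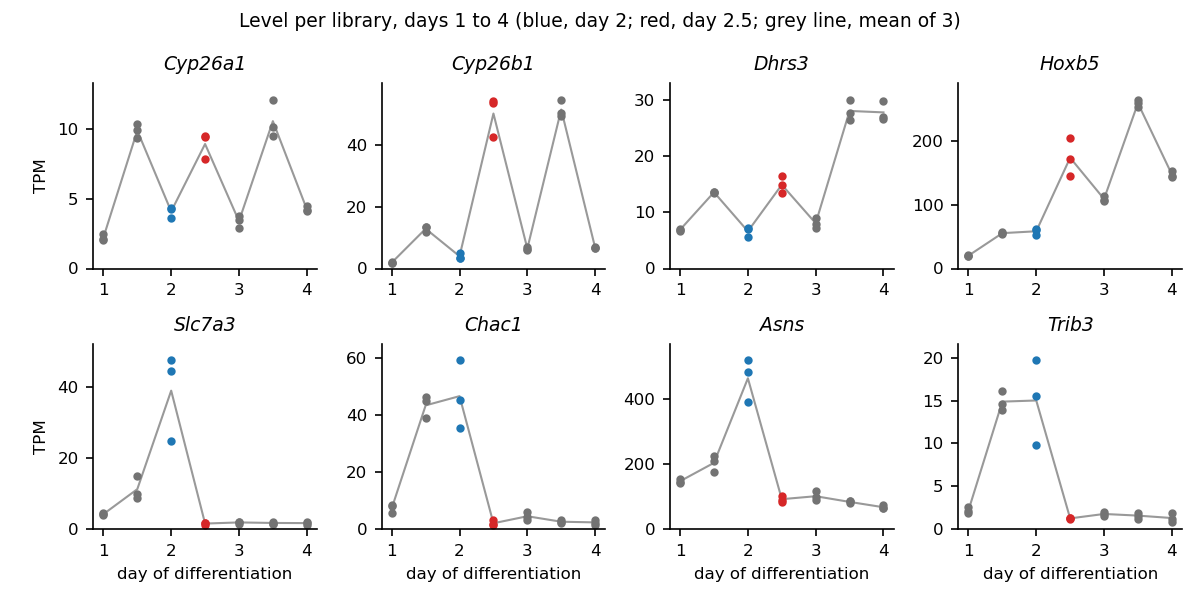
TPM (vertical axes) of 8 genes in each library from day 1 to day 4 (horizontal axes, day of differentiation); points are libraries, blue for day 2 and red for day 2.5, and the grey line joins the means of 3. Cyp26a1 and Cyp26b1 are higher at days 1.5, 2.5 and 3.5 than at the whole days beside them and Hoxb5 is higher at days 2.5 and 3.5 than at days 2, 3 and 4, whereas Slc7a3, Chac1, Asns and Trib3 drop between day 2 and day 2.5 and stay low to day 4.

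Among the 37 lists the integrated stress response genes had the median furthest from 0. Of 25 genes 24 fell and none rose, with a median of -1.94, against 22.9% lower among all tested genes. In this response a shortage of amino acids or unfolded protein slows translation and lets Atf4 be made, and Atf4 switches on amino acid transporters and synthesis enzymes. Atf4 itself stood at 289, 291 and 310.4 TPM at day 2 and 123, 114 and 96.4 TPM at day 2.5 (log2 fold change -1.45 ± 0.064, adjusted p = 7.33e-19). Ddit3, the CHOP factor, went from 26.7 ± 4.43 to 14.3 ± 0.716 TPM. Chac1 (chr2:119351229-119354381, plus strand), which degrades glutathione, stood at 45.2, 35.5 and 59.1 TPM at day 2 and 3.04, 1.74 and 1.36 TPM at day 2.5 (log2 fold change -4.54 ± 0.22, adjusted p = 1.07e-17). Trib3, a pseudokinase that restrains Atf4, stood at 15.5, 9.85 and 19.7 TPM at day 2 and 1.17, 1.3 and 1.28 TPM at day 2.5 (log2 fold change -3.61 ± 0.19). The lowest day 2 library was at least 7 times the highest day 2.5 library in both.

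Among amino acid transporters in the list, Slc7a3 (chrX:101079210-101086020, minus strand) stood at 44.7, 24.9 and 47.6 TPM at day 2 and 1.8, 1.25 and 1.62 TPM at day 2.5 (log2 fold change -4.62 ± 0.20, adjusted p = 4.53e-19). Slc7a5 and Slc3a2, the light and heavy chains of a carrier for large neutral amino acids, went from 272 ± 34.2 to 70.2 ± 6.97 TPM and from 345 ± 39.0 to 109 ± 4.79 TPM. Slc7a11, the cystine transporter, fell from a low level, from 1.35 ± 0.222 to 0.233 ± 0.0115 TPM. Among synthesis enzymes, Asns, which makes asparagine, stood at 481, 391 and 518 TPM at day 2 and 103, 90.4 and 82.6 TPM at day 2.5 (log2 fold change -2.40 ± 0.082, adjusted p = 2.01e-21). Psat1 and Phgdh of serine synthesis had log2 fold changes of -1.41 ± 0.058 and -0.88 ± 0.059, and Shmt2 and Mthfd2 of mitochondrial one-carbon metabolism -1.96 ± 0.070 and -1.94 ± 0.064. The exception was Ddit4, an mTOR inhibitor, which did not pass (log2 fold change 0.11 ± 0.076, adjusted p = 0.248) and passed as higher without day 2.5 replicate 3 (adjusted p = 0.0237).

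Day 2 replicate 2 was the lowest of the 3 day 2 libraries for Slc7a3, Chac1, Trib3 and Asns. The list's summed level was 3010 to 3780 TPM at day 2 and 1038 to 1196 TPM at day 2.5, without overlap. At days 3 to 4 Chac1 and Asns were lower than at day 2. Chac1 averaged 43.4 TPM at day 1.5, 4.50 at day 3, 2.58 at day 3.5 and 2.35 at day 4, and Asns 204, 101, 83.5 and 67.1 TPM at those times. The day 3.5 contrast did not pass for Slc7a3, Chac1, Trib3 or Asns (adjusted p 0.364 to 0.731), and over the list 3 genes were higher and 4 lower in it. Asns and Slc7a3 had risen in the 12 hours before day 2 (log2 fold changes 1.09 and 1.68), and 23 of the 25 genes had a step to day 2.5 that differed from the step before it, against 45.7% of all genes.

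Several of these genes carry the letters of the element that Atf4 is known to bind with a C/EBP partner, and 4 of them are shown. In the whole list 24 of 25 genes fell, so the fall does not set those with the letters apart. Binding was not measured. The motif searched was TGATGNAA on both strands, in the same window of 250 bases before to 50 after the start site. It was found for 6 of 21 listed genes in the table (28.6%), which were Asns, Chac1, Nupr1, Pck2, Slc7a11 and Trib3, and for 1219 of 27025 genes overall (4.51%). Capitals mark the matches, and each sequence reads 5′ to 3′ on the strand of its gene.
Chac1 (chr2:119351024-119351081, plus strand): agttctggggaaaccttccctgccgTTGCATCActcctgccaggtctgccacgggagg
Asns (chr6:7693210-7693257, minus strand): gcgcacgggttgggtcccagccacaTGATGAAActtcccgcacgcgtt
Slc7a11 (chr3:50443628-50443704, minus strand): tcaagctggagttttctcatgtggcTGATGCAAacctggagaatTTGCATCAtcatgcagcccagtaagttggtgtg
Nupr1 (chr7:126625548-126625605, minus strand): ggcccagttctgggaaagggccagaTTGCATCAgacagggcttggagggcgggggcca
Slc7a11 holds 2 matches, 1 on each strand. The 4 genes had log2 fold changes of -4.54, -2.40, -2.23 and -1.94, and Nupr1 was low, at 1.53, 0.75 and 1.32 TPM at day 2 and 0.69, 0.46 and 0.11 TPM at day 2.5.

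Sterol and fatty acid synthesis genes, which the SREBP factors control, were mainly higher: 18 of 22 rose, 1 fell and 3 did not pass, with a median of 0.38. Hmgcs1, an early enzyme of the pathway, stood at 467, 548 and 424 TPM at day 2 and 832, 807 and 797 TPM at day 2.5 (log2 fold change 0.73 ± 0.064, adjusted p = 2.94e-11), without overlap. Idi1 and Mvk had log2 fold changes of 0.82 ± 0.081 and 0.78 ± 0.067. In the day 3.5 contrast 6 of the 22 were higher and 3 lower.

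Of 20 glycolysis and hypoxia genes 5 rose, 3 fell and 12 did not pass (median -0.0097), against 24.9% and 22.9% of all genes, and between 3 and 8 rose under the alternatives. Vegfa, the vessel growth factor, fell from 88.8 ± 10.3 to 41.9 ± 1.19 TPM and Egln3, a prolyl hydroxylase, rose from 7.89 ± 0.554 to 16.1 ± 0.243 TPM. Of 13 circadian clock genes 10 fell and 1 rose (median -0.39). Arntl, which drives the clock's positive arm, stood at 2.62, 2.92 and 2.51 TPM at day 2 and 5.28, 6.12 and 6.99 TPM at day 2.5 (log2 fold change 1.13 ± 0.11), and Per2 and Nr1d1, of its negative arms, fell with log2 fold changes of -0.82 ± 0.12 and -0.77 ± 0.13. In the day 3.5 contrast 7 of the 13 were lower and 4 higher, with Per2 at -0.57 and Arntl at 0.35. Of 23 immediate early and ERK feedback genes 6 rose and 8 fell (median -0.17), and 5 fell without day 2.5 replicate 2 or on log2(TPM + 1) values. Atf3, which the integrated stress response also induces, went from 12.5 ± 3.38 to 2.68 ± 0.182 TPM, Egr1 from 4.93 ± 0.799 to 2.19 ± 0.530 TPM and Myc from 11.8 ± 0.258 to 20.2 ± 0.969 TPM. Of 14 p53 target genes 6 rose and 4 fell (median 0.049). Ccng1 rose from 314 ± 12.1 to 500.2 ± 16.5 TPM and Bbc3, a cell death gene, fell from 51.3 ± 2.77 to 39.1 ± 2.91 TPM.

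The step of hours 48 to 60 was compared with its neighbours by a test of the difference of the 2 steps. It differed from the step of hours 36 to 48 for 8223 genes (45.7%) and from that of hours 60 to 72 for 6431 genes (35.7%). Those neighbouring steps themselves passed for 53.3% and 34.4% of tested genes. Neighbouring steps share the libraries of day 2 or day 2.5, so a value that is off in those libraries enters both. Of the 20 motor neuron genes 16 differed from the step before, and the median log2 fold change of the list was 1.66 before, 0.81 in this interval and 0.30 after. For Isl2 these were 3.51, 0.92 and 0.56, and for Chat 2.77, 0.56 and 0.51. Cytoskeleton genes had medians of 1.14, 1.10 and 0.32. For Tubb3 the 3 values were 1.22, 1.44 and -0.0075, and the difference of the first 2 did not pass (adjusted p = 0.115). Synapse genes had medians of 0.72, 0.99 and 0.40. Snap25 (values 1.25, 2.24 and 0.031) moved more in this interval than before or after (adjusted p = 0.0019 and 3.34e-11). Scg2 also moved more than before or after (adjusted p = 0.00648 and 2.01e-10). Nhlh1 turned, with 1.29 before and -0.35 in this interval (adjusted p of the difference 1.90e-10). The Olig2 fall of -0.57 followed a step of -0.040 (adjusted p of the difference 0.0102) and was not distinguished from the next step of -0.25 (adjusted p = 0.151).

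**Figure D4:**
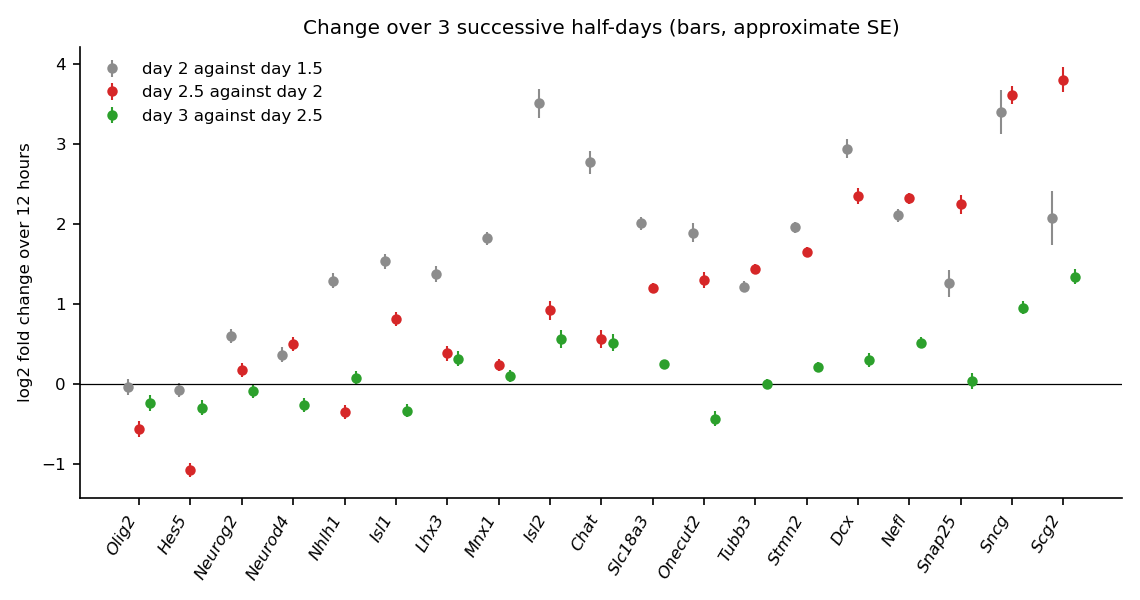
Log2 fold change over 12 hours (vertical axis) of 19 genes (horizontal axis) for day 2 against day 1.5 (grey), day 2.5 against day 2 (red) and day 3 against day 2.5 (green); points are estimates from the edgeR fit and bars approximate standard errors. Olig2 and Hes5 are lowest in red (-0.57 and -1.08), Isl2 and Chat are highest in grey (3.51 and 2.77), and Snap25 and Scg2 are highest in red (2.24 and 3.81).

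Markers of cells from outside the neural lineage were present at low to moderate levels in both groups. Of 12 caudal epiblast genes, which mark an earlier stage of the course, 1 rose (Nkx1-2) and 1 fell (Cdx2), with sums of 5.00 to 6.67 TPM at day 2 and 5.11 to 5.72 TPM at day 2.5. Among them T, a defining factor, was under 2 TPM in each of the 6 libraries and Cdx4 was listed at 0 in all. Of 14 pluripotency genes 4 fell and none rose, and only 2 fell without day 2 replicate 2. Pou5f1, the defining gene, was between 1.34 and 3.51 TPM. Most of that list's level was Lin28a, an RNA-binding protein of early embryos that neural progenitors also make (from 121 ± 4.80 to 95.0 ± 3.60 TPM).

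Of 15 endothelial markers 3 rose and 3 fell (median 0.015), with sums of 126 to 200.3 TPM at day 2 and at most 210 TPM at day 2.5. The highest sum of each day came from day 2 replicate 1 and day 2.5 replicate 3. Cdh5, the adhesion protein of vessel walls, stood at 18.4, 13.03 and 14.3 TPM at day 2 and 17.7, 19.6 and 37.5 TPM at day 2.5, in overlapping groups, and its call as higher was lost without day 2.5 replicate 3 (adjusted p = 0.121). Pecam1 and Sox7 lost theirs as well (adjusted p = 0.489 and 0.766), after which none of the 15 passed as higher, and 1 passed without day 2 replicate 2 or 3. Egfl7 and Sox18 fell (log2 fold changes -0.71 ± 0.11 and -0.71 ± 0.14). The same day 2.5 replicate was highest for Phox2a, Tbx20 and Runx1, a blood stem cell factor at 0.6, 0.46 and 0.71 TPM at day 2 and 1.42, 1.57 and 3.21 TPM at day 2.5, and the part of vessel or blood cells in those values was not tested.

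Of 7 tested blood markers 1 rose and 1 fell, Ptprc and Lyz2 were under 0.3 TPM and the embryonic globins summed to most of the 27.1 to 59.2 TPM. Of 9 tested paraxial mesoderm markers 1 fell (Meox1), with sums of 17.5 to 25.5 TPM over the 6 libraries. Of 6 tested neural crest markers 1 fell (Ets1, which vessels also express), and Sox10 was under 0.2 TPM. Of 9 tested endoderm and epithelial markers 1 rose and 3 fell, with sums of 34.1 to 43.1 TPM at day 2 and 28.0 to 38.4 TPM at day 2.5. Of 10 fibroblast markers 3 rose and 1 fell, and only 1 rose without day 2 replicate 2 or day 2.5 replicate 3. Their sums were 88.3 to 114 TPM at day 2 and 82.1 to 106 TPM at day 2.5. The labels name the cells of every time point neural progenitors. In the 6 libraries both progenitor and neuronal genes were well expressed, with Sox2 over 120 TPM and Tubb3 over 300 TPM in each.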

How the data were processed

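RNA was prepared with the Qiagen RNeasy Plus Micro kit and libraries with the KAPA mRNA kit, per the labels' protocols. Reads passed through bcl2fastq 2.20.0 and RSEM with GRCm38, per the submitters' processing notes, while aligner and strandedness were not given in the sources used here. The deposited table holds expected counts per gene, RSEM's estimates, of which 6.87% are not whole, and the authors deposited TPM values beside them. Of 51912 gene identifiers 51633 had a symbol, and coordinates are from GENCODE M21 on GRCm38.

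Expected counts were rounded and fitted over all 36 libraries and 12 time points with edgeR 4.0.16 in R 4.3.3 (TMM scaling, filterByExpr, quasi-likelihood test, 24 residual degrees of freedom), with Benjamini-Hochberg adjustment over the 17990 genes kept. Differences between 12-hour steps and the day 3.5 contrast came from the same fit. Approximate standard errors are the size of the change over the root of its F statistic. The script was tested on simulated data. Alternatives were median-of-ratios scaling, no filter, the contrast's own libraries, DESeq2 1.42.0, limma 3.58.1 on log2(TPM + 1) and log2(TPM + 0.1), a replicate block, and leaving out each library.

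Replicate numbers were not treated as pairs. Totals of 26567321 to 35757989 counts limit precision for genes near 1 TPM, and they cover counting error only. Members and gene lists were chosen with earlier results of these data known. Named genes were a panel of 25, the 8 largest rises and 8 largest falls with non-overlapping groups and at least 10 CPM in the higher group (without predicted genes), up to 4 changed members of each list by size, and exceptions. Named beyond that rule, after their values were seen, were Ccne1, Cdx4, Dll4, Fen1, Lyz2, Notch1, Notch3, Pou5f1, Ptprc, Rfng, Sox10, T, Tyms, Ache, Aldh1a2, Asns, Atf4, Ccnd3, Ccne2, Cdkn1a, Cplx2, Crabp2, Cxcr4, Ddit3, Ddit4, Dlg4, Dll3, Dpysl5, Ebf1, Ebf3, Foxp1, Gfra1, Gria2, Hey1, Hoxb1, Hoxb8, Hoxb9, Irx5, Jag2, Lhx4, Lmo4, Map2, Mthfd2, Nefm, Nes, Neurod1, Neurog1, Nupr1, Pck2, Pcna, Pecam1, Phgdh, Prdm8, Psat1, Ptbp1, Rarb, Rarg, Ret, Robo1, Robo3, Shh, Shmt2, Slc10a4, Slc3a2, Slc7a11, Slc7a5, Slit2, Sox21, Spon1, Syn1 and Tuba1a. Genes that overlap another gene, among them Mef2b, Notch2, Onecut1, Hoxc5, Egfl7, Tuba1a, Neurod1, Foxp1 and Ddit3 on the same strand and Gli1, Hes5, Dll1, Lhx3, Nkx2-2, Hoxb5, Nefl and Nefm on the other, are uncertain. Promoter sequences are from RefSeq on GRCm38.p6. Some genes that the rule names are not reported here.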

Additional observations from a re-analysis of the deposited data

Results flagged for a closer look

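For 6 genes of the panel the step of hours 48 to 60 and the step of hours 60 to 72 both passed and went opposite ways, and the difference of the 2 steps passed in edgeR's quasi-likelihood test. Both steps use the day 2.5 libraries, so a value that is off in those libraries enters each with opposite sign, and no explanation was tested. The progenitor factor Sox2 averaged 182, 130.2 and 153 TPM at days 2, 2.5 and 3, and its steps differed by -0.71 on the log2 scale (adjusted p = 1.15e-07). The Notch ligand Dll1 averaged 69.9, 60.4 and 73.9 TPM, with a difference of -0.45 (adjusted p = 3.45e-05). Both were lowest at day 2.5 of the 3 times. The other 4 were highest then. Neurod4 averaged 42.9, 62.1 and 53.1 TPM, with a difference of 0.77 (adjusted p = 0.00014). Isl1 averaged 44.0, 76.2 and 64.9 TPM, with a difference of 1.14 (adjusted p = 1.96e-07). Onecut2 averaged 6.25, 15.7 and 12.0 TPM, with a difference of 1.74 (adjusted p = 6.46e-10). Cyp26a1, which alternated over the later days, had a difference of 2.52 (adjusted p = 1.05e-10). Dll1 alternated as well, at 54.5 TPM at day 3.5 and 79.1 TPM at day 4. It was lower in the day 3.5 contrast (log2 difference -0.40, adjusted p = 3.09e-09). In that contrast Sox2 and Neurod4 were also lower (-0.11 and -0.26), and Isl1 and Onecut2 were slightly higher (0.18 and 0.21).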

How the results depend on the processing

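The alternatives were followed for 225 genes: the panel, those named by size and most of the exceptions. Of these, 196 kept their direction and their side of the threshold under all 13 alternatives. Among 2923 comparisons 86 lost a call, 9 gained one and 0 turned direction. In the main fit 206 of the 225 had passed, and many were picked for the size of their change. Other genes in the text, among them Notch1, Notch3, Dll4, Tyms, Fen1, Prdm8, Sox21, Sox4, Sox11, Srrm4 and Insm1, were not followed in this way. The number of changed genes (8594) was 8594 with median-of-ratios scaling, 8269 without a filter, 7814 with only the contrast's libraries, 8295 with DESeq2, 7455 and 7460 with limma on log2(TPM + 1) and log2(TPM + 0.1), and 7606 to 8272 without 1 library. The share of calls that were higher ranged from 48.75% to 59.6%. The number changed by at least 2-fold was 1195, 338 with limma on log2(TPM + 1), which shrinks the fold changes of low genes, 917 on log2(TPM + 0.1) and 1108 to 1249 without 1 library. Without 1 library the step differed from the step before for 6907 to 8049 genes and from the step after for 5118 to 6593, and the day 3.5 contrast passed for 6207 to 7266. With the replicate number as a block 8539 genes changed (1185 by at least 2-fold), the 2 step differences passed for 8166 and 6357 and the day 3.5 contrast for 7408. Among the 225 genes the block ended the call of Robo3 alone (adjusted p = 0.0585). Deviations of same-numbered libraries correlated at -0.19, 0.073 and -0.037, so the numbers were not treated as pairs. List counts that moved by over 1.5 times without 1 library were those under 10 genes and the mitosis list. Of the 37 lists 7 of 14 posterior Hox genes and 7 of 11 blood markers passed the filter on low counts, so little can be said of the remainder. Medium renewal, depth and mitochondrial share were not separated from time.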

Other observations

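Several regulators of the neurogenic transition, chosen for mention after their values were seen, were also higher at day 2.5. Sox4 and Sox11, factors that switch on neuronal genes, went from 116 ± 2.34 to 148 ± 9.17 TPM (log2 fold change 0.31, adjusted p = 9.74e-07) and from 102 ± 3.44 to 138 ± 7.78 TPM (log2 fold change 0.40, adjusted p = 1.36e-08) in edgeR's test. Srrm4, a splicing activator of neuronal microexons, went from 20.4 ± 1.12 to 31.1 ± 1.08 TPM, and Insm1, a factor of neurogenic divisions, from 23.0 ± 3.31 to 33.6 ± 7.89 TPM. Btg2, which marks progenitors about to give neurons, stood at 52.1 and 56.3 TPM and did not pass (adjusted p = 0.322), nor did Gadd45g (adjusted p = 0.227). Prdm8, a repressor of transcription that acts during neural development, went from 20.3 ± 2.75 to 41.2 ± 4.91 TPM. Sox21, which counters Sox2 in progenitors, went from 23.9 ± 1.76 to 32.5 ± 0.996 TPM.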
